A study of Mus musculus with 55 samples.

Results

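This account describes 251 mouse genes with a Zfp symbol that were expressed above a set level in the young cerebellum. The members were selected on their measured mean level among all genes whose single symbol is Zfp followed by digits and an optional letter, apart from 1 gene that the rule leaves out by name. Each gene was read from its brightest probe set, and it was kept where its mean over 55 arrays was at least 7.5 on the log2 scale. Of 340 such genes among 19938 genes measured, 251 passed (73.8%) and 89 lay under the threshold. The level threshold used the same arrays as the comparisons below, so the members' levels are a description. Just inside it were Zfp784 (7.53), Zfp618 (7.52) and Zfp689 (7.51), and just outside Zfp568 (7.496), Zfp593 (7.485) and Zfp707 (7.480).

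The RNA came from bisected cerebella of C57Bl/6 mice at postnatal day 22. Pups had been injected under the skin daily from postnatal day 4 to 21 with chlorpyrifos oxon (CPO), the active form of the insecticide chlorpyrifos, at 0.35 or 0.5 mg per kg per day, or with the vehicle DMSO. The genotypes were WT (Pon1+/+), KO (Pon1-/-), tgHuPON1Q192 and tgHuPON1R192, the last pair carrying a human PON1 transgene in its Q192 or R192 form. Vehicle, 0.35 and 0.5 were read on 6, 6 and 3 arrays in WT, on 4, 5 and 3 in KO, on 4, 5 and 5 in Q192, and on 4, 5 and 5 in R192. The labels do not give the promoter of the transgenes, the mouse Pon1 alleles of those lines, the sex of the pups, or whether each array is a separate animal, so p-values measure the spread between these arrays. PON1, or paraoxonase, is a plasma enzyme that breaks down CPO, and the treatment note names the agent chlorpyrifos while the design text describes its oxon. The comparisons ask how genotype and dose alter cerebellar expression.

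The mouse Pon1 signal went against the labels. It averaged 5.19 ± 0.24 (SD, n = 15) in WT and 10.1 ± 0.19 (SD, n = 12) in the arrays labelled KO, with 10.1 in both transgenic lines. A probe set outside the disrupted part of a gene does not check a knockout, and the files do not say where this one lies. The signal was not only retained but above WT. Labelled KO arrays ran from 9.78 to 10.4 and WT arrays from 4.79 to 5.55. Why was not tested, and the group is called "labelled KO" here. Cerebellar markers were high throughout, with Gabra6 of granule neurons between 10.7 and 13.2 and Pcp2 of Purkinje cells between 8.56 and 10.8. Xist was above 8 on 3 arrays, 1 of labelled KO vehicle and 2 of WT at 0.35. The median over all genes varied between 7.64 and 7.81 across arrays.

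Zfp genes encode C2H2 zinc finger proteins, in which a zinc ion held by paired cysteines and histidines folds each finger so that it can read a short stretch of DNA. Many carry a KRAB domain, which recruits the co-repressor Trim28 and, through it, enzymes that place silencing marks on chromatin; a large share of such genes silence retroelements. They multiplied by tandem duplication and so lie in clusters. Other Zfp genes are unrelated in function and act in RNA processing or in neural development. In bulk tissue, fewer cells of a type and less RNA per cell cannot be told apart.

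The members were spread unevenly over the genome. Chromosome 7 held 61 of them (24.3%, against 7.98% of all genes tested), chromosome 17 held 29, chromosomes 13 and 8 held 20 each and chromosome 11 held 16. Their mean levels ran from 7.51 to 11.2, with a median of 8.51 against 7.76 over all genes. The brightest probe sets were those of Zfp644, Zfp445, Zfp871, Zfp971, Zfp706, Zfp207, Zfp638 and Zfp148, between 10.6 and 11.2; probe sets differ in efficiency, so this does not rank the genes' transcripts.

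Differences among the 12 groups were small for most members. The range of the group means was 0.26 log2 for the median member, from 0.08 to 0.62, and the spread within groups was 0.13 (median SD). The widest spread of group means belonged to Zfp931, Zfp617, Zfp385b, Zfp943, Zfp729b, Zfp385c, Zfp52, Zfp759, Zfp40 and Zfp941. Zfp617 ran from 8.35 ± 0.35 (SD, n = 5) in Q192 at 0.35 to 8.96 ± 0.06 (SD, n = 3) in WT at 0.5. Zfp385b ran from 8.81 ± 0.47 (SD, n = 3) in WT at 0.5 to 9.42 ± 0.30 (SD, n = 6) in WT at 0.35. Arrays differed widely within some groups (SD 0.35 for Zfp617 in Q192 at 0.35 and 0.47 for Zfp385b in WT at 0.5). They differed little for Zfp617 in WT at 0.5 (SD 0.06). Neither gene passed the test in any dose comparison.

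A small set of neighbouring members on chromosome 7 differed between WT and the other lines. Genotype and any other difference between the lines cannot be told apart here. Zfp93, Zfp111 and Zfp180, C2H2 genes of 1 tandem run, were called higher than WT by 0.22 to 0.30 log2 in labelled KO and R192. In Q192, Zfp93 (0.32) and Zfp111 (0.21) were called and Zfp180 did not pass. The other genes of the run described here were not called. This run holds 10 protein-coding Zfp genes in the gene table, of which 9 are described here and 6 are members. The promoters of the 3 called genes, and that of the uncalled Zfp108 between Zfp111 and Zfp93, are shown because they share an element. Each is the RefSeq window of 250 bases before the gene start on build GRCm38.p6, 5′ to 3′ on the gene's strand, at chr7:24270168-24270417 (+) for Zfp93, chr7:24208150-24208399 (-) for Zfp111, chr7:24081647-24081896 (+) for Zfp180 and chr7:24254544-24254793 (+) for Zfp108. Capitals mark the SBS element, the site bound by the zinc finger factor Zfp143, on either strand, and in Zfp180 also CCAAT on either strand.
Zfp93: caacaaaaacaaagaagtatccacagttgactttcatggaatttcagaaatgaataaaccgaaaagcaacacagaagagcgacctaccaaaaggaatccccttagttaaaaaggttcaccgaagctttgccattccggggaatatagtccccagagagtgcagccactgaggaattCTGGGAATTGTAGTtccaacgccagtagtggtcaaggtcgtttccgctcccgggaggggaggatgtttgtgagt
Zfp111: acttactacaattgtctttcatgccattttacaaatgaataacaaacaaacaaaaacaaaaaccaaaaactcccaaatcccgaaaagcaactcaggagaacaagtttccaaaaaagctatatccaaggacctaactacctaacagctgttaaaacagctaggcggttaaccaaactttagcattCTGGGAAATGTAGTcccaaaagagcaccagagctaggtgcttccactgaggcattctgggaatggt
Zfp180: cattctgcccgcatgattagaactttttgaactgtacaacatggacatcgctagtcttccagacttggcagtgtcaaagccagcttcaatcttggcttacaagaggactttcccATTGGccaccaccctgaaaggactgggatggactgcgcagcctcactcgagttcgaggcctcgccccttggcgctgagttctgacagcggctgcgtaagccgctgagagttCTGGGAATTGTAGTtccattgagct
Zfp108: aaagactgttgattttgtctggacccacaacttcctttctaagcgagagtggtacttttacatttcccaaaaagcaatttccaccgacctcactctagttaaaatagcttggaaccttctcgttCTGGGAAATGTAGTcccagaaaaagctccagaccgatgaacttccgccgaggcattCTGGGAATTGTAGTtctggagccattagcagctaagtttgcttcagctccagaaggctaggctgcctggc

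The SBS element was searched as its core form, with any base allowed at 1 position. It was picked after the promoters had been read, and a match is only a match of letters. Windows of 300 bases, running to 50 after the start, were listed for 210 of the 251 members and for 27025 genes in all. The element occurred in 19 of 210 member windows (9.05%) and in 155 of 27025 windows (0.574%), and 14 of the 19 lay on chromosome 7. In the run it was present in Zfp180, Zfp112, Zfp111, Zfp108 and Zfp93 and not found in Zfp235, Zfp61 and Zfp94, so it was found in uncalled genes too. Among other motifs, searched on both strands, GGGCGG (GC box) was in 47.1% of member windows and 35.9% of all, CCGGAAG (ETS) in 20% and 9.12%, the palindromic NRF1 site in 4.29% and 0.977%, CCAAT in 46.2% and 37.9%, and TATAAA in 7.14% and 14.2%. CACGTG (E-box) was in 7.14% and 7.24%, TGACGTCA (CRE) in 2.86% and 1.88%, and the palindromic CGCG element in 0.476% and 0.496%. Member windows held a median of 15 CG pairs against 7 over all windows.

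Zfp93 was lowest in WT. Its level was 8.32 ± 0.15 (SD, n = 15) in WT, 8.62 ± 0.14 (SD, n = 12) in labelled KO, 8.65 ± 0.12 (SD, n = 14) in Q192 and 8.60 ± 0.10 (SD, n = 14) in R192. WT arrays ran from 8.08 to 8.62 with a median of 8.29, and the other 40 arrays from 8.42 to 8.88. All 40 lay above the WT mean, and 12 of 15 WT arrays lay below all 40. The highest WT arrays reached into the others' range, so that 17 of the 40 lay above every WT array. In limma's moderated test with Benjamini-Hochberg adjustment, the difference from WT was 0.30 ± 0.05 (SE) in labelled KO (adjusted p = 0.000473), 0.32 ± 0.05 in Q192 (adjusted p = 4.35e-05) and 0.27 ± 0.05 in R192 (adjusted p = 0.000779), which is a 1.21 to 1.25-fold higher level.

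Zfp111 was also lowest in WT. It averaged 7.80 ± 0.11 (SD, n = 15) in WT, 8.09 ± 0.12 (SD, n = 12) in labelled KO, 8.02 ± 0.14 (SD, n = 14) in Q192 and 8.11 ± 0.08 (SD, n = 14) in R192. WT arrays ran from 7.57 to 7.98, and 36 of the other 40 arrays lay above all of them. Its differences from WT were 0.28 ± 0.05 (SE, adjusted p = 0.00045), 0.21 ± 0.05 (adjusted p = 0.0145) and 0.30 ± 0.05 (adjusted p = 3.96e-05) by limma. The Q192 call for Zfp111 was lost when WT 0.5 replicate 1 was left out, which left 1 member called in Q192. Zfp180 averaged 9.20 ± 0.12 (SD, n = 15) in WT and 9.41 ± 0.13 (SD, n = 12), 9.36 ± 0.09 (SD, n = 14) and 9.45 ± 0.12 (SD, n = 14) in labelled KO, Q192 and R192. For Zfp180, 38 of the other 40 arrays lay above the WT mean and 19 above every WT array. It passed in labelled KO (0.22 ± 0.05, adjusted p = 0.00921) and R192 (0.26 ± 0.05, adjusted p = 0.000293), while its value in Q192 was 0.18 ± 0.05 with an adjusted p of 0.0537.

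**Figure D1:**
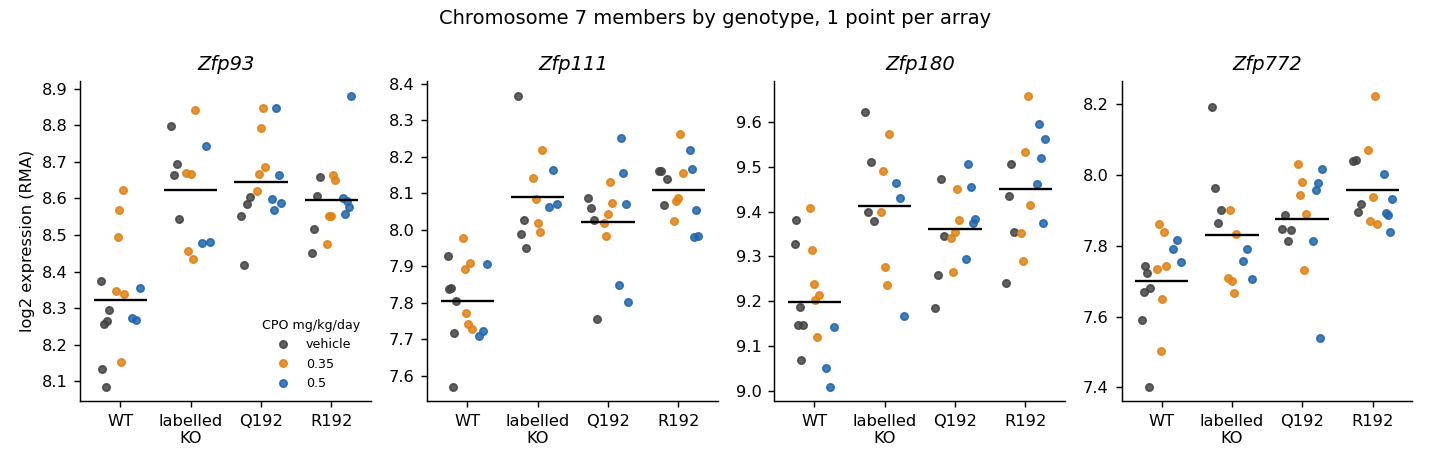
Level (log2, RMA) of Zfp93, Zfp111, Zfp180 and Zfp772 in each of 55 arrays by genotype, with points coloured by treatment (CPO in mg per kg per day) and bars at genotype means. For Zfp93, all 40 arrays of the other genotypes lie above the WT mean of 8.32; those above every WT array number 17 for Zfp93, 36 for Zfp111, 19 for Zfp180 and 25 for Zfp772.

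The other genes of the run described here lay at smaller differences, some between the called genes and Zfp61 and Zfp94 after Zfp93. Zfp235 differed from WT by 0.06, 0.04 and 0.06 in labelled KO, Q192 and R192, Zfp108 by 0.01, -0.06 and 0.04, and Zfp61 by 0.03, -0.04 and -0.02. Among genes of the run under the level threshold, Zfp112 gave 0.02, 0.02 and 0.04, Zfp114 gave 0.11, 0.13 and 0.08, and Zfp94 gave -0.09, -0.06 and -0.06. None of these 6 genes passed in limma's test in any of the 3 comparisons (adjusted p from 0.547 upwards). The 3 comparisons share the WT arrays and are therefore not independent of each other.

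**Figure D2:**
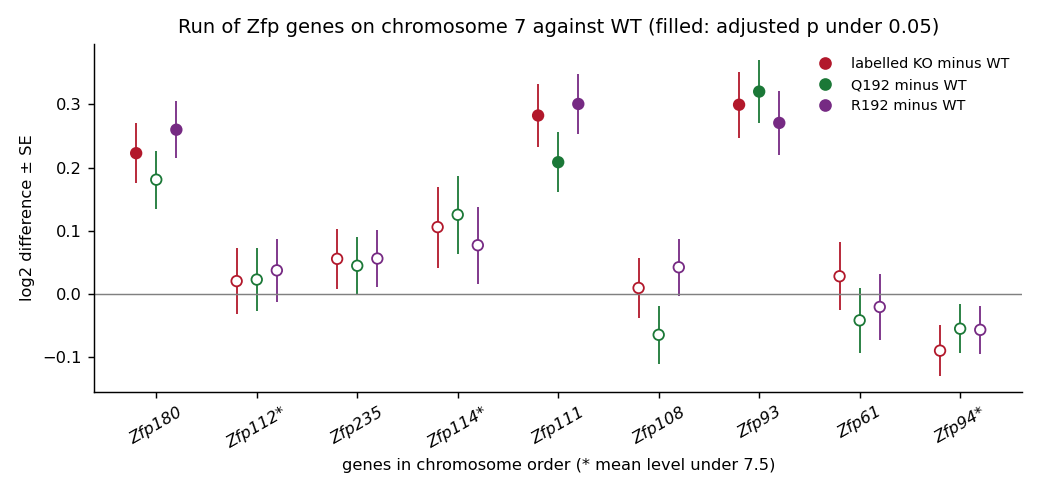
Difference from WT (log2, ± SE) of 9 measured Zfp genes in chromosome order along 1 run of chromosome 7, for labelled KO, Q192 and R192; filled points have an adjusted p under 0.05 and starred genes have a mean level under 7.5. Zfp180, Zfp111 and Zfp93 stand at 0.18 (Zfp180 in Q192, not passing) to 0.32, and the 6 other genes between -0.09 and 0.13.

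Zfp772, in another chromosome 7 run with Zfp954, Zfp773 and Zfp418, was called higher in R192 than in WT. It averaged 7.70 ± 0.13 (SD, n = 15) in WT, 7.83 ± 0.15 (SD, n = 12) in labelled KO, 7.88 ± 0.13 (SD, n = 14) in Q192 and 7.96 ± 0.11 (SD, n = 14) in R192. R192 arrays began at 7.84, and WT arrays reached 7.86. The R192 difference was 0.24 ± 0.05 (SE, adjusted p = 0.00248 by limma), against 0.11 (adjusted p = 0.954) in labelled KO and 0.16 (adjusted p = 0.256) in Q192. In all, 3 members were called higher in labelled KO, 2 in Q192 and 4 in R192 against WT and 0 were lower in this model, where 0.375%, 0.455% and 0.87% of all 14950 genes tested were called. With array quality weights 8 of 11, 2 of 6 and 5 of 12 calls were lower, and on vehicle arrays alone the calls were 1, 0 and 7, of which 1 in R192 was lower. The next members were Zfp462 (0.11, adjusted p = 0.767) and Zfp30 (-0.16, adjusted p = 0.0773) and Zfp655 (-0.11, adjusted p = 0.365) in labelled KO, and Zfp612 (-0.14, adjusted p = 0.271) and Zfp30 (-0.12, adjusted p = 0.457) in Q192.

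Chromosome 7 was also common among all called genes, with 41.1%, 36.8% and 32.3% of the genes called in labelled KO, Q192 and R192 against 7.98% of those tested. The bulk of the members leaned slightly lower in labelled KO and Q192 (176 and 191 of 251 below WT, medians -0.03 and -0.04) and not in R192 (111 of 251, median 0.02), beside medians between -0.01 and 0.00 over all genes. The labelled KO median turned to 0.09 on vehicle arrays alone and to 0.00 on date 1 alone, and the R192 median to -0.03 with the first principal axis in the model. The arrays of each date in their descriptions were also taken alone. Zfp93 was then higher by 0.40 and 0.20 in labelled KO, 0.31 and 0.33 in Q192 and 0.23 and 0.32 in R192. It was called on these same arrays together, so this is a description. With so few arrays, 0 members passed on either date in labelled KO, 0 and 1 in Q192 and 1 and 3 in R192.

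Between R192 and labelled KO, 7 members passed: Zfp14, Zfp146, Zfp330, Zfp367, Zfp655 and Zfp773 were higher in R192 and Zfp536 was lower. That is 2.79% of the members, under the 5.61% called among all genes tested (2.66% higher and 2.96% lower), so the share is no result about the members. The largest was Zfp773, at 7.64 ± 0.20 (SD, n = 14) in R192 and 7.38 ± 0.27 (SD, n = 12) in labelled KO, a difference of 0.26 ± 0.08 (SE, adjusted p = 0.0471 by limma). Its arrays ran from 7.34 to 8.02 and from 6.84 to 7.93, so the groups overlapped almost fully. Zfp367 differed by 0.18 ± 0.05 (SE, adjusted p = 0.0177), Zfp330, a nucleolar protein, by 0.21, Zfp146 by 0.21, Zfp14 by 0.14, Zfp655 by 0.13 and Zfp536 by -0.15. The count rested on single arrays. It was 31 without labelled KO 0.35 replicate 5 and 22 without labelled KO vehicle replicate 1. With any 1 of 14 other arrays left out it was 1 to 4. Labelled KO 0.35 replicate 5 shares the number in the array description with R192 0.35 replicates 3 and 4, across the groups compared. The labels do not say what the number marks. Cell type markers also differed in this comparison. In R192, 16 of 16 granule neuron markers were lower than in labelled KO (median -0.20). Of 11 microglial markers 10 were higher (median 0.17), and P2ry12, Aif1 and Tyrobp passed. With the mean of the granule markers as a covariate 1 member passed, and with that of the brainstem markers more than 7 did. The part of the microglial markers was not tested.

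No member passed between Q192 and labelled KO or between R192 and Q192, where 0.401% and 0.0736% of all genes tested did (0.0535% higher in R192 than in Q192). At an unadjusted p under 0.05 lay 15 and 38 members (5.98% and 15.1%), beside 9.53% and 9.97% of all genes. The closest between Q192 and labelled KO were Zfp622 (0.12) and Zfp14 (0.12) above and Zfp612 (-0.15) and Zfp536 (-0.10) below, with adjusted p from 0.203 to 0.463 by limma. Between R192 and Q192 they were Zfp113 (0.12), Zfp935 (0.29), Zfp385a (-0.19) and Zfp318 (-0.08), with adjusted p from 0.427 to 0.475.

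In WT at CPO 0.5, Zfp655, Zfp639 and Zfp280c were called higher than with vehicle, and Zfp536, a repressor of neuronal differentiation, was called lower. These were 4 of 251 members (1.59%) beside 1.04% of all genes tested (0.247% higher and 0.789% lower). The share is therefore near that of genes in general. Zfp655 was 8.82 to 9.02 with a median of 8.94 in the 6 WT vehicle arrays and 9.30, 9.28 and 9.15 in the 3 WT arrays at 0.5. All 3 treated arrays lay above all vehicle arrays. The difference was 0.31 ± 0.06 (SE, adjusted p = 0.0323 by limma), or 1.24-fold.

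Zfp639 was 8.90 to 9.22 with a median of 9.06 in WT vehicle and 9.46, 9.51 and 9.43 at 0.5, again with no overlap, and differed by 0.38 ± 0.09 (SE, adjusted p = 0.0337 by limma). Zfp280c was 9.39 to 9.54 with a median of 9.42 in WT vehicle and 9.90, 9.97 and 9.78 at 0.5, a difference of 0.43 ± 0.11 (SE, adjusted p = 0.0377), or 1.34-fold. Zfp536 was 7.91 to 8.14 with a median of 8.07 in WT vehicle and 7.78, 7.63 and 7.70 at 0.5, a difference of -0.34 ± 0.08 (SE, adjusted p = 0.0336). In each gene the treated arrays stood apart from the vehicle arrays in the direction of the call. The genes were called on these same arrays, so this is a description. In this comparison the arrays did not overlap in 28.3% of members and 13.2% of all genes tested.

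**Figure D3:**
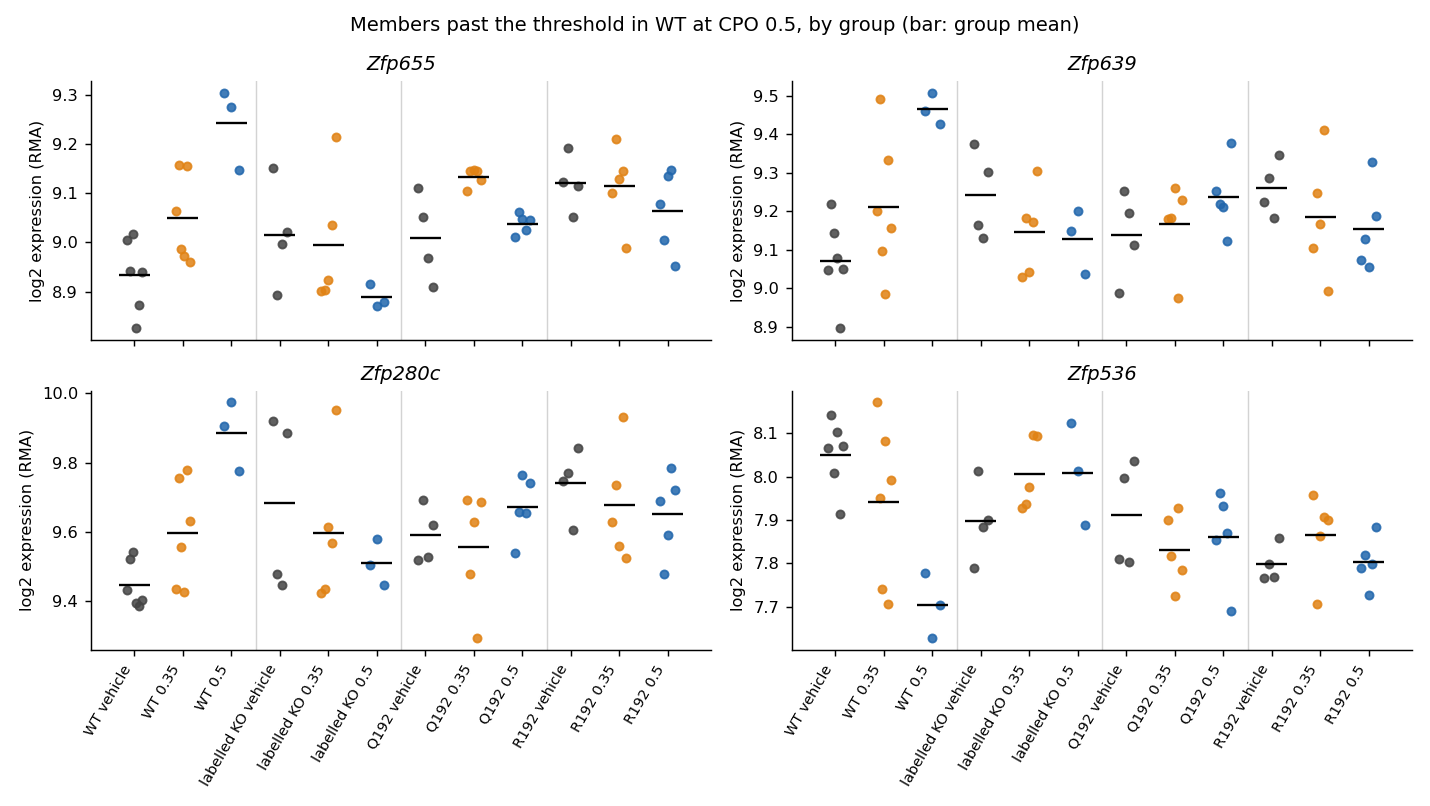
Level (log2, RMA) of Zfp655, Zfp639, Zfp280c and Zfp536 in each array of the 12 genotype by treatment groups, with bars at group means; colours mark vehicle, CPO 0.35 and CPO 0.5 mg per kg per day. The 3 WT arrays at 0.5 lie beyond all 6 WT vehicle arrays in each gene, and the genes were called on these same arrays. In labelled KO the 0.5 arrays lie within or below the vehicle arrays for the first 3 genes.

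The lean was wider than the calls. In WT at 0.5, 170 of 251 members were higher (median 0.11, against -0.01 over all genes), and in 71 members the 3 treated arrays did not overlap the vehicle arrays, 61 above and 10 below (28.3%, against 13.2% of all genes tested). At 0.5 in WT, 28.7% of members had an unadjusted p under 0.05 by limma, beside 21.9% of all genes. At 0.35 in WT, 202 of 251 were higher (median 0.07), beside 47.6% of all genes. None passed, and 0.00669% of all genes tested did. An unadjusted p under 0.05 was less common there among members (12.0%) than among all genes (20.3%). On date 1 alone this median was 0.00, just below 0, with 0 calls; on date 2 alone it was 0.16 with 25 calls, 22 of them higher. Marker lists moved with the 0.35 lean in WT and none of their genes passed: 16 of 16 granule neuron (median 0.38) and 7 of 7 Purkinje cell markers (0.45) were higher, and 12 of 12 oligodendrocyte (-0.40), 21 of 22 brainstem and midbrain (-0.29) and 11 of 11 microglial markers (-0.26) were lower. The granule list mean ran from 9.44 to 11.6 in WT vehicle and from 10.7 to 11.5 at 0.35, and 2 of the 6 arrays at 0.35 had Xist above 8. With the granule marker mean, the brainstem marker mean or Xist as a covariate, the 0.35 median stayed above 0 and 0 members passed. The part of the other marker lists was not tested. At 0.35 the count became 8 when WT 0.35 replicate 4 was left out, and 2 when replicate 1 of WT vehicle was. The nearest at 0.35 were Zfp207, a spindle assembly and splicing protein (0.27, adjusted p = 0.125 by limma), and Zfp385b (0.38, adjusted p = 0.128), with Zfp334 (-0.16, adjusted p = 0.125) and Zfp365 (-0.37, adjusted p = 0.139) on the lower side. The 4 calls at 0.5 were fragile. WT 0.5 replicates 1 and 2 share the number in the array description, as do WT vehicle replicates 4, 5 and 6. The labels do not say what that number marks. None passed without WT 0.5 replicate 1, 2 or 3 or WT vehicle replicate 2, 5 or 6, 1 passed without WT vehicle replicate 1, and 10 without WT vehicle replicate 4.

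On each date alone none of the 4 passed, although the differences were of like size (Zfp655 0.32 and 0.33, Zfp639 0.33 and 0.46, Zfp280c 0.41 and 0.48, Zfp536 -0.30 and -0.36). None of the 4 passed once the first principal axis of all genes entered the model, where the same differences were 0.22, 0.22, 0.21 and -0.31. The axis itself differed between these groups, with a mean score of 9.86 in WT vehicle and -8.21 in WT at 0.5. In labelled KO it was -5.77 with vehicle and 10.7 at 0.5. A model with the axis therefore also takes out any dose difference that lies along it. Choroid plexus markers were lower in the same comparison (7 of 7, median -0.42, none passing), and their list mean was 8.30 ± 0.15 (SD, n = 6) in vehicle and 7.91 ± 0.32 (SD, n = 3) at 0.5; their part in the result was not tested. Granule neuron markers were lower in 14 of 16 (median -0.14), with a list mean of 10.8 ± 0.72 (SD, n = 6) in vehicle and 10.6 ± 0.54 (SD, n = 3) at 0.5.

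In the other genotypes no member passed at either dose, and no gene at all did (0%). In labelled KO the lean was the opposite: 168 of 251 members were lower at 0.5 (median -0.12, against 0.03 over all genes) and 172 at 0.35 (median -0.07), and 56 and 13 members had an unadjusted p under 0.05 (22.3% and 5.18%, beside 12.8% and 6.44% of all genes). The 0.5 median was 0.01 with the first principal axis in the model. Those nearest to passing at 0.5 in labelled KO were Zfp839 (0.20) and Zfp385a (0.37) above and Zfp983 (-0.47) and Zfp420 (-0.40) below, all with an adjusted p of 0.387 by limma. At 0.35 they were Zfp641 (0.13), Zfp513 (0.15), Zfp772 (-0.23) and Zfp292 (-0.26), with an adjusted p of 0.66.

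In Q192 the median member was higher by 0.03 at 0.35 and by 0.07 at 0.5, with 4 and 28 members at an unadjusted p under 0.05 (1.59% and 11.2%, under the 2.05% and 13.2% of all genes). With the first principal axis in the model the 0.5 median turned to -0.04. Those nearest to passing in Q192 at 0.5 were Zfp369 (0.19), Zfp551 (0.21), Zfp282 (-0.28) and Zfp212 (-0.21), with an adjusted p of 0.332 by limma. At 0.35 in Q192 they were Zfp655 (0.13), Zfp330 (0.24), Zfp787 (-0.17) and Zfp810 (-0.16). In R192 the medians were -0.01 at both doses, with 8 and 5 members at an unadjusted p under 0.05 (3.19% and 1.99%, beside 3.59% and 1.02% of all genes). Zfp142 (0.22), Zfp212 (0.18), Zfp14 (-0.21) and Zfp273 (-0.35) came nearest in R192 at 0.35, and Zfp3 (0.14), Zfp791 (0.17), Zfp276 (-0.18) and Zfp213 (-0.15) at 0.5.

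Averaged over the 4 genotypes, each dose gave 0 calls among members and 0% among all genes, with medians of 0.01 at both doses. Zfp213 (0.07), Zfp655 (0.05), Zfp617 (-0.14) and Zfp169 (-0.03) came nearest at 0.35, and Zfp39 (0.13), Zfp941 (0.18), Zfp276 (-0.10) and Zfp467 (-0.10) at 0.5. For these averages 1 and 12 members had an unadjusted p under 0.05 (0.398% and 4.78%, beside 1.83% and 4.84% of all genes).

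**Figure D4:**
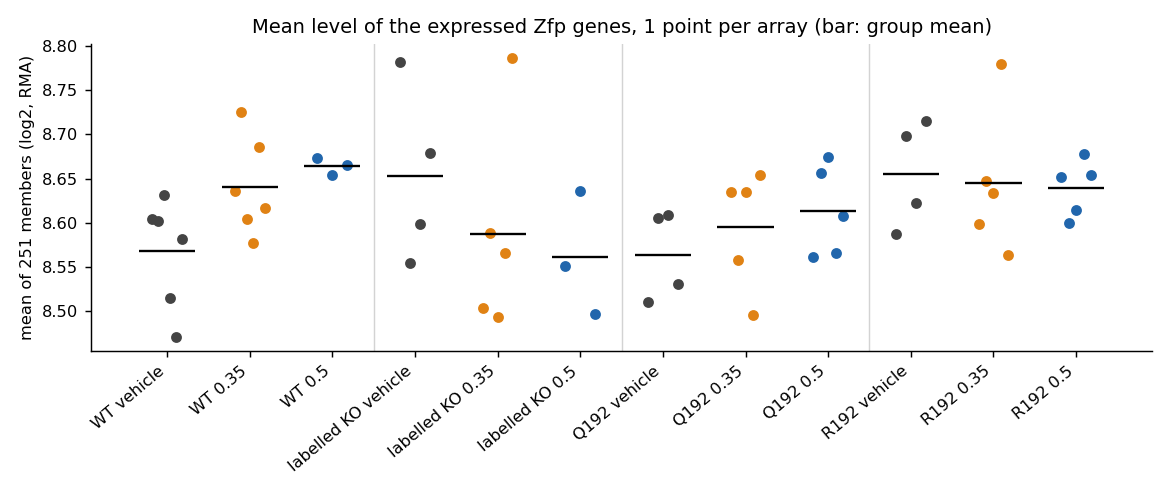
Mean level of the 251 members (log2, RMA) in each array of the 12 groups, with bars at group means. The means run from 8.47 to 8.79; in WT the group means rise from 8.57 with vehicle to 8.66 at 0.5, and in labelled KO they run from 8.65 to 8.56 with wide overlap.

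The response to 0.5 differed between WT and labelled KO in 28 members, 25 with a lower response in labelled KO and 3 with a higher one. This was 11.2% of members, beside 9.2% of all genes tested, so the share is near that of genes in general. Among all genes called, 841 had a higher response in labelled KO (5.63% of genes tested) and 534 a lower one (3.57%). All 25 were higher with CPO in WT and lower with CPO in labelled KO, a sign pattern that the lower call itself favours. These 25 were also higher in Q192 in 25 of 25 (median 0.16) and lower in R192 in 22 of 25 (median -0.04), for which no test was made.

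Zfp729b, on chromosome 13, had the largest difference of responses among the members that passed. It was 8.26 to 8.60 with a median of 8.36 in WT vehicle and 8.78, 8.93 and 8.81 in WT at 0.5. In labelled KO it was 9.07, 8.29, 8.58 and 8.87 with vehicle and 8.21, 8.60 and 8.17 at 0.5. The WT groups did not overlap, while the labelled KO groups did, with 2 high vehicle arrays, replicates 1 and 4. The responses of 0.43 and -0.39 differed by -0.82 ± 0.26 (SE, adjusted p = 0.0438 by limma).

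Zfp943, on chromosome 17, was 8.50 to 8.91 with a median of 8.73 in WT vehicle and 9.02, 9.29 and 9.10 at 0.5. In labelled KO it was 9.31, 8.65, 8.77 and 9.28 with vehicle and 8.48, 8.81 and 8.53 at 0.5, so the same 2 vehicle arrays were high. The responses differed by -0.80 ± 0.26 (SE, adjusted p = 0.0443 by limma). Zfp40, also on chromosome 17, responded by 0.46 in WT and -0.32 in labelled KO, a difference of -0.78 ± 0.22 (SE, adjusted p = 0.0383). The next 9 lower responses belonged to Zfp280d (-0.68), Zfp938 (-0.63), Zfp825 (-0.63), Zfp711 (-0.62), Zfp280c (-0.61), Zfp874a (-0.61), Zfp420 (-0.61), Zfp638 (-0.59) and Zfp945 (-0.59).

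The 3 members with a higher response in labelled KO were Zfp385a, Zfp536 and Zfp592. Zfp385a, an RNA-binding protein, was 8.43 to 8.69 with a median of 8.54 in WT vehicle and 8.48, 8.08 and 8.21 in WT at 0.5. In labelled KO it was 7.83, 8.64, 8.39 and 7.998 with vehicle and 8.58, 8.38 and 8.73 at 0.5, so both pairs of groups overlapped. Its responses differed by 0.66 ± 0.21 (SE, adjusted p = 0.0445 by limma). Zfp536 differed by 0.45 ± 0.12 (SE, adjusted p = 0.037) and Zfp592, a partner of the chromatin reader Zmynd8, by 0.44 ± 0.14 (SE, adjusted p = 0.044).

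The difference of responses was deeper in the members on chromosomes 13 and 17 than in those on chromosome 7 or in all 251. No ranking over all chromosomes was made, so this is not shown to be particular to chromosomes 13 and 17. Members elsewhere passed too, such as Zfp330 on chromosome 8, Zfp280d on chromosome 9 and Zfp938 on chromosome 10. The 20 members on chromosome 13 had a median of -0.53 and the 29 on chromosome 17 a median of -0.54, against -0.13 for the 61 on chromosome 7 and -0.22 for all 251. Other genes on chromosomes 13 and 17 had medians of -0.06 and 0.09, and all genes tested 0.05. In WT, 19 of 20 members on chromosome 13 and 26 of 29 on chromosome 17 were higher at 0.5 (both medians 0.24), and in labelled KO 19 of 20 and 24 of 29 were lower (both medians -0.26). Of those that passed, 6 lay on chromosome 13 (Zfp369, Zfp729a, Zfp729b, Zfp825, Zfp87 and Zfp874a). On chromosome 17 lay 5 (Zfp40, Zfp563, Zfp799, Zfp943 and Zfp945), and on chromosome 7 lay 5. Zfp825 had 2 probe sets, with means of 10.4 and 8.46, and the brighter was read. Its call (adjusted p = 0.0499 by limma) held in 17 of 55 runs with 1 array left out. Tandem copies such as Zfp729a and Zfp729b have alike sequences, so their probes may read each other's transcripts and they are not independent.

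**Figure D5:**
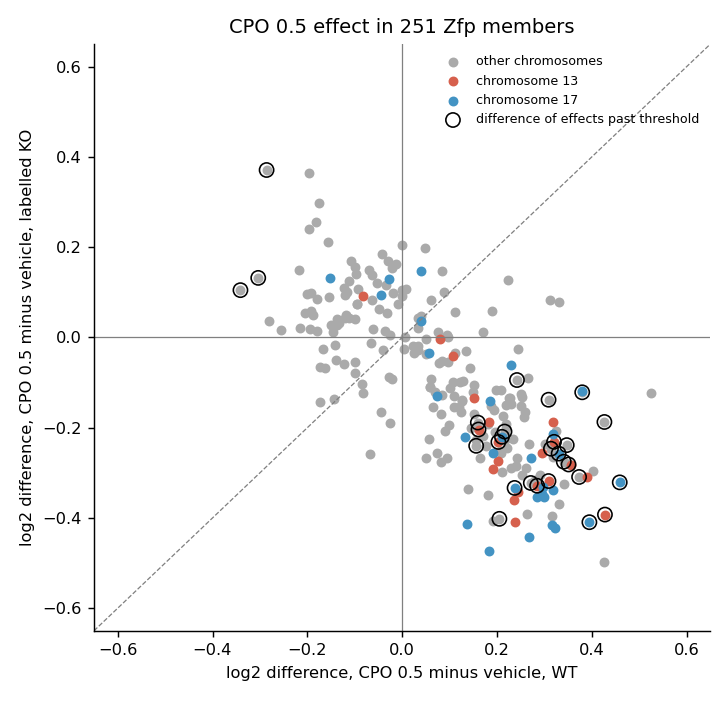
Difference between CPO 0.5 and vehicle (log2) of each of 251 members in WT (horizontal) and in labelled KO (vertical); red and blue points are members on chromosomes 13 and 17, rings mark the 28 members whose responses differed at an adjusted p under 0.05, and the dashed line marks equal responses. Most members of chromosomes 13 and 17 lie in the lower right, higher with CPO in WT and lower in labelled KO.

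These 28 calls rested on few arrays. Labelled KO 0.5 replicates 1 and 2 share the number in the array description, as do labelled KO vehicle replicates 2 and 3. None remained without labelled KO 0.5 replicate 1 or 3, labelled KO vehicle replicate 1 or 4, WT 0.5 replicate 2 or 3, or WT vehicle replicate 1 or 5. There were 96 without labelled KO vehicle replicate 2, between 44 and 58 without any of 7 other arrays, which were labelled KO 0.35 replicates 1 and 5, labelled KO 0.5 replicate 2, labelled KO vehicle replicate 3, Q192 0.35 replicate 4, WT 0.35 replicate 2 and WT vehicle replicate 3, and 17 without WT vehicle replicate 2 or 6. Labelled KO vehicle replicate 4 is 1 of the 3 arrays with Xist above 8. None passed with Xist as a covariate, with the 3 arrays of high Xist left out, with the first principal axis in the model, or on either date alone. Granule neuron markers moved the other way, with 15 of 16 responding higher in labelled KO than in WT (median 0.32), and 5 members passed with their mean as a covariate.

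The difference of the 0.35 responses between labelled KO and WT gave no call among members and 0.00669% among all genes. Its median was -0.14 and 195 of 251 members were lower, with Zfp292 (-0.46, adjusted p = 0.0756 by limma) and Zfp207 (-0.45, adjusted p = 0.0768) nearest below and Zfp641 (0.24, adjusted p = 0.0793) and Zfp365 (0.61, adjusted p = 0.0885) above. This rested on arrays as well, with 44 calls once labelled KO 0.35 replicate 5 was removed, 15 once labelled KO vehicle replicate 2 was, 13 once replicate 4 of WT at 0.35 was, and 2 once replicate 1 of WT vehicle was. R192 and Q192 differed in the response of 0 members at either dose (0% of all genes), with 11 and 10 members at an unadjusted p under 0.05 (4.38% and 3.98%, under the 5.56% and 6.93% of all genes). Zfp142 (0.31), Zfp346 (0.25), Zfp14 (-0.30) and Zfp35 (-0.47) came nearest at 0.35, and Zfp212 (0.27), Zfp653 (0.26), Zfp524 (-0.21) and Zfp169 (-0.16) at 0.5.

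By role, the 11 RNA-binding or RNA-processing Zfp genes listed included 10 members. None passed for genotype or dose, and 3 of the 11 passed for the difference of responses to 0.5, for which 9.2% of all genes tested did: Zfp385a higher, and Zfp638 (-0.59) and Zfp326, of a complex that couples splicing to elongation (-0.56), lower. The list's median was -0.09. Of 17 developmental and neural Zfp genes, 15 were members and 16 were tested. Zfp536 was the only one to pass for CPO 0.5 in WT, where 11 of the 16 were lower (median -0.15, against 0.11 over members). Zfp423, needed for cerebellar growth, gave -0.22 there and Zfp521 -0.14, without passing, and the X-linked Zfp711 gave 0.34 (adjusted p = 0.116 by limma). For the difference of responses to 0.5 the list's median was 0.19, and Zfp536 and Zfp385a passed higher and Zfp711 lower, as above.

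Of 6 measured genes listed for imprinting and retroelement silencing, Zfp57, Zfp445 and Zfp809 were members. Zfp57 and Zfp445 keep imprints on imprinted genes, and Zfp809 silences proviruses. Zfp57 averaged 8.47, 8.53, 8.50 and 8.51 in WT, labelled KO, Q192 and R192, Zfp445 11.06, 11.06, 11.02 and 11.12, and Zfp809 8.73, 8.74, 8.72 and 8.83. None of the 5 tested genes passed in any comparison named here.

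Among 32 tested KRAB cofactor and heterochromatin genes, 4 passed for the difference of responses to 0.5, beside 9.2% of all genes tested, so the count is no result about the list. Trim28, the KRAB co-repressor, differed by 0.70 ± 0.23 (SE, adjusted p = 0.0499 by limma), Dnmt3a, a DNA methyltransferase, by 0.60 and Chd4, of the NuRD complex, by 0.54, while Morc3 differed by -0.57. The list's median was -0.04, with 15 higher and 17 lower. None passed for dose in WT or labelled KO, and Cbx5, a heterochromatin protein, was higher in R192 than in WT (0.19, adjusted p = 0.0121) and than in labelled KO. Dnmt1 was lower in R192 than in labelled KO (-0.20, adjusted p = 0.0453).

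The related Zbtb, Zscan and Zkscan families, which share C2H2 fingers, had 62 tested genes, of which Zkscan3 was higher in Q192 than in WT (0.31). None passed for CPO in WT at 0.5, where 30 were higher and 32 lower (median -0.02). For the difference of responses they gave Zbtb7a higher (0.76) and Zbtb1 (-0.56) and Zbtb25 (-0.39) lower, with a median of 0.00. The Zfp genes under the level threshold, of which 57 of 89 were tested, leaned like the members, with a median of 0.09 for CPO 0.5 in WT and -0.18 for the difference of responses. Of these genes, Zfp438 passed for CPO 0.5 in WT (0.38, adjusted p = 0.0355 by limma), and Zfp442 (-1.15), Zfp874b (-1.06), Zfp354b (-0.81), Zfp709 (-0.80) and Zfp438 (-0.49) passed for the difference of responses. Also named after their values were seen, Zfp974 was higher in labelled KO (0.33, adjusted p = 0.025 by limma) and in R192 (0.34, adjusted p = 0.00851) than in WT.

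The members varied together across arrays. Within groups, the median correlation between pairs of members was 0.18, against 0.02 for other genes with a mean of 7.5 or more, a description over 55 arrays that share processing and tissue makeup. One axis held 54.9% of the members' variation within groups. Their mean level per array ran from 8.47 (WT vehicle replicate 5) to 8.79 (labelled KO 0.35 replicate 5), and labelled KO vehicle replicate 1 (8.78) and R192 0.35 replicate 4 (8.78) stood beside the latter. Labelled KO vehicle spanned 8.55 to 8.78, which is wider than the difference between any 2 group means.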

How the data were processed

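Total RNA of bisected cerebella was read on 55 Affymetrix Mouse Gene 1.0 ST arrays. The deposited log2 values were made by RMA in Affymetrix Expression Console 1.1, per the submitters' processing notes; no genome build for the arrays is given in the sources used here. Of 35557 probe sets, 21789 had 1 gene symbol, 1621 several and 12147 none; a gene took its brightest probe set (19938 genes). One limma 3.58.1 model (R 4.3.3) held the 12 group means, the date in the array description and a correlation of 0.13 between arrays sharing a description number, with 42 residual degrees of freedom, on 14950 genes above the 25th percentile of level (6.44). Moderated two-sided p-values were Benjamini-Hochberg adjusted over all genes in each of 20 comparisons, at 0.05. The test was checked on simulated data. Precision is limited by the number of arrays. Named genes are the members that pass (at most 12 each way), or else the nearest ones. Members and lists were chosen with earlier results of these data known. Alternatives varied covariates, filters, weights, dates and arrays. Of the members, 11 had several probe sets. Promoters came from RefSeq, GRCm38.p6. 1 Zfp gene is not reported here, and protein sequences were not analysed here.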

Additional observations from a re-analysis of the deposited data

Results flagged for a closer look

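In single groups, 1 array stood far from the others in 2 of 90 groups checked over 8 genes, and chance alone marks about 5% of groups. Zfp93 was 8.88 in R192 0.5 replicate 5, where the other 4 arrays of that group lay between 8.56 and 8.60. Zfp639 was 8.98 in Q192 0.35 replicate 4, where the others lay between 9.18 and 9.26.

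The response to CPO 0.5 differed between labelled KO and WT, by a test of the difference itself in limma, in 28 members. Relative to WT, the response in labelled KO was lower on the log2 scale in Zfp729b (-0.82), Zfp943 (-0.80), Zfp40 (-0.78), Zfp280d (-0.68), Zfp938 (-0.63), Zfp825 (-0.63), Zfp711 (-0.62), Zfp280c (-0.61), Zfp874a (-0.61), Zfp420 (-0.61), Zfp638 (-0.59), Zfp945 (-0.59) and Zfp330 (-0.59). It was also lower, by smaller amounts, in Zfp563 (-0.57), Zfp326 (-0.56), Zfp729a (-0.55), Zfp639 (-0.50), Zfp655 (-0.45), Zfp87 (-0.43), Zfp799 (-0.43), Zfp397 (-0.42), Zfp772 (-0.40), Zfp369 (-0.36), Zfp14 (-0.35) and Zfp637 (-0.34). It was higher in Zfp592 (0.44), Zfp536 (0.45) and Zfp385a (0.66). These differences were not called without labelled KO vehicle replicate 1 or 4, among other arrays. Replicate 4 is 1 of the 3 arrays with Xist above 8, and 0 of the 28 were called with Xist as a covariate.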

How the results depend on the processing

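No member that passed reversed direction under any alternative run. Leaving out 1 array at a time, the members called were 0 to 8 for CPO 0.35 and 0 to 10 for CPO 0.5 in WT, 3 to 4, 1 to 3 and 4 to 5 for labelled KO, Q192 and R192 against WT, 1 to 31 for R192 against labelled KO, and 0 to 44 and 0 to 96 for the difference of the 0.35 and 0.5 responses between labelled KO and WT. With array quality weights they were 46 for CPO 0.5 in WT, 5 in Q192, 3 over the 4 genotypes, 11, 6 and 12 for labelled KO, Q192 and R192 against WT, 19 and 113 for Q192 and R192 against labelled KO and 1 for R192 against Q192. On date 1 alone they were 0 for CPO 0.5 in WT, 0, 0 and 1 for the 3 genotypes against WT, 0 for R192 against labelled KO and 0 for the 0.5 difference. On date 2 alone they were 25 and 0 for CPO 0.35 and 0.5 in WT, 0 and 1 for labelled KO and Q192 against WT, 2 for R192 against labelled KO, and 13 and 0 for the 0.35 and 0.5 differences. With the first principal axis in the model they were 0 for CPO 0.5 in WT, 4 for Q192 against WT, 2 and 4 for Q192 and R192 against labelled KO and 0 for the 0.5 difference, and the member medians turned to -0.02 for CPO 0.5 in WT, 0.01 in labelled KO, 0.03 for their difference, -0.04 for CPO 0.5 in Q192, -0.03 for R192 against WT and -0.01 for R192 against labelled KO. On vehicle arrays alone they were 1, 0 and 7 for the genotypes against WT and 0 for R192 against labelled KO. A member threshold of 8 gave 1 and 2 for Q192 and R192 against WT. For CPO 0.5 in WT, R192 against labelled KO and the 0.5 difference, brainstem markers as a covariate gave 9, 24 and 59, no number correlation gave 8, 13 and 55 (4 for the 0.35 difference), and the replicate block gave 2, 4 and 46. For the last pair, granule markers as a covariate gave 1 and 5, and no level filter 3 and 8. The 0.5 difference was 55 with a filter at the 50th percentile, 49 with arrays centred, 44 with no date covariate and 0 with Xist as a covariate. Of alternatives chosen after seeing the data, leaving out 3 arrays of high Xist gave 0 for it, and leaving out 4 arrays (those and labelled KO 0.35 replicate 5) gave 9 for CPO 0.5 in WT, 5 for labelled KO against WT, 1 and 42 for Q192 and R192 against labelled KO. Where no value shows it, the cause was not tested. Replicate numbers did not pair the arrays: arrays of the same number in different groups had a median correlation of 0.018, from -0.57 to 0.76.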
